A study of Mus musculus with 2 samples.

Results

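Genes made mainly by white blood cells were followed in whole heads of newborn mice of 2 genotypes, MatDp(dist2) and PatDp(dist2), as a set of 36 genes that mark neutrophils, macrophages and microglia, mast cells, and lymphoid or antigen-presenting cells. They were taken by name, as every probe set whose only platform gene symbol was one of the 36, which gave 54 of the 45101 probe sets on the array and 36 of the 18193 genes with such a probe set. The set holds 6 neutrophil granule genes, 18 macrophage and microglia genes, 3 mast cell genes and 4 lymphoid or antigen presentation genes, and the 5 genes that most leukocytes share (Ptprc, Cd52, Coro1a, Laptm5 and Itgb2) were kept apart as a general leukocyte group. The pair of genotypes came from carriers of T(2:9)11H, a reciprocal translocation between Chr 2 and Chr 9, and each was measured in 1 newborn whole-head RNA sample on 1 Affymetrix array. The MatDp(dist2) head carried both copies of Chr 2 beyond the breakpoint from the mother and both copies of Chr 9 beyond it from the father. The PatDp(dist2) head carried the opposite, paternal distal Chr 2 and maternal distal Chr 9. The design compares the arrays pairwise for transcripts that depend on parental origin. A whole head mixes skin, muscle, bone, brain, glands and blood, the labels give neither how many animals each RNA sample came from nor their sex, and no head without a duplication was analysed here. In such bulk RNA, fewer cells of a type and less RNA per cell cannot be told apart.

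Neutrophils are short-lived phagocytes that pack antimicrobial proteins into granules while they mature in the marrow. Macrophages live in tissues, where they take up debris and dying cells, and microglia are the macrophages of the brain, and both depend on the receptor encoded by Csf1r. Mast cells sit in skin and around vessels, store histamine and proteases in granules, and need the receptor Kit. B cells, T cells and cells that show peptides on class II molecules to T cells are the lymphoid and antigen-presenting side of the set.

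The values are MAS5 signals, linear brightness values that the authors scaled on each array to a common trimmed mean, and a ratio is MatDp(dist2) over PatDp(dist2). A gene is read from its brightest probe set unless others are named, and it is called measured where at least 1 array reached the floor of 187, the median over the arrays of their 50th percentile. Where 1 array lay under the floor, the ratio is a bound against the floor. Each value comes from 1 array without replicates, so no difference could be set against the spread between animals, no test was made, and precision is limited by having 2 arrays in all. Median signals over all probe sets were 201 in MatDp(dist2) against 173 in PatDp(dist2). The 3'/5' signal ratio of the Gapdh control probe sets, a sign of RNA integrity, was 0.936 in MatDp(dist2) against 1.04 in PatDp(dist2). Of 5 tissue markers, Tubb3 (neurons), Acta1 (muscle), Col2a1 (cartilage) and Krt5 (skin) were above the floor in both heads, while the lens gene Cryaa had signals of 3456 in MatDp(dist2) against 7.2 in PatDp(dist2).

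The mast cell genes stood on the MatDp(dist2) side and nearly all other measured genes of the set on the PatDp(dist2) side. All 3 mast cell genes were higher in MatDp(dist2), with a median of 2.60-fold. Of the 24 other measured genes, 22 had the higher signal in PatDp(dist2), with a median log2 ratio of -0.46, which is 1.38-fold higher in PatDp(dist2). Among all 12483 measured genes 48.0% had the higher signal in PatDp(dist2), and the median log2 ratio was 0.02.

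Start site sequences are shown first for the mast cell genes, because all 3 were higher in MatDp(dist2). The windows run from 250 bases before to 50 bases after the RefSeq start of each gene in GRCm38.p6, 5′ to 3′ on the gene's own strand, which is the minus strand for all 3. They lie at chr3:20242132-20242431 for Cpa3, chr14:55944626-55944925 for Cma1 and chr14:56062261-56062560 for Mcpt4, so the proteases Cma1 and Mcpt4 share Chr 14. Capitals mark GATAA or its reverse complement TTATC, letters read by GATA factors, of which Gata2 is needed for mast cells.
Cpa3: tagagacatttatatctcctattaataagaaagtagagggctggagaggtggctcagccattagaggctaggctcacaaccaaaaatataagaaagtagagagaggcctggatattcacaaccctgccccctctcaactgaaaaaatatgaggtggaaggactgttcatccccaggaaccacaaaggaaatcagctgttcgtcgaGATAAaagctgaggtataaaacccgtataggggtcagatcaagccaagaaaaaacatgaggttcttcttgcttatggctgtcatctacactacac
Cma1: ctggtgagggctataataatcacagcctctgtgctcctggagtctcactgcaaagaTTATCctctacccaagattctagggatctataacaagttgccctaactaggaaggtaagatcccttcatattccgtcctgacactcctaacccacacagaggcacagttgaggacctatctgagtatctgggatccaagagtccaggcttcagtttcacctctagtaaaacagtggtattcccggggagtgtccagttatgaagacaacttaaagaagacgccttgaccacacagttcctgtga
Mcpt4: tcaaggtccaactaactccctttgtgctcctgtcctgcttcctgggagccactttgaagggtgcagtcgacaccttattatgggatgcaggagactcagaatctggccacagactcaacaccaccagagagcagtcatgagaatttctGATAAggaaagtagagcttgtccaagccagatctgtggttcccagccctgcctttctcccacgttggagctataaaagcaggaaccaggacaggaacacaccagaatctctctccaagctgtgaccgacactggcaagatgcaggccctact
Each of the 3 windows held the letters once, starting 45 bases before the start in Cpa3, 194 in Cma1 and 102 in Mcpt4. On either strand GATAA occurred in 25.4% of the 32851 RefSeq start windows of this length. Counted by gene, as for the set, it occurred in 28.4% of 27025 genes. Of the 29 genes of the set that the RefSeq promoter table lists, 7 held it. The letters CATGTG, an E-box form, were searched on both strands too and occurred in none of the 3 mast cell windows, in 5 of the 29 genes and in 14.2% of all windows. By gene their share was 15.9%. A match describes the letters and is not a binding site.

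A second group of windows is shown for the macrophage genes Mrc1, C1qb and C1qc, which were higher in PatDp(dist2). They lie at chr2:14229164-14229463 on the plus strand, and at chr4:136886151-136886450 and chr4:136892865-136893164 on the minus strand, in the same build. Capitals mark GAGGAA or its reverse complement TTCCTC, core letters read by ETS factors such as PU.1, the product of Spi1, which macrophages need.
Mrc1: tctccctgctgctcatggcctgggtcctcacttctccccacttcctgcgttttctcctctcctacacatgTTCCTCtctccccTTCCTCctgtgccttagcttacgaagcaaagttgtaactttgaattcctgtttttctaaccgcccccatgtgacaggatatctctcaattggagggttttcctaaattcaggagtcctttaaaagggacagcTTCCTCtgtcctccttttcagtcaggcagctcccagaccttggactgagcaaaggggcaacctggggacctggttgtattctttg
C1qb: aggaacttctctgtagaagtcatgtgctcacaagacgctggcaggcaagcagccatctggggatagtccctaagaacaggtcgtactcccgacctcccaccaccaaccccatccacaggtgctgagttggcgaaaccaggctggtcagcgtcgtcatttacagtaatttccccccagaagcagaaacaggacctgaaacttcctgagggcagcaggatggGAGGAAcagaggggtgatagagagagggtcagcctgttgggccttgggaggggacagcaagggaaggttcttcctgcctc
C1qc: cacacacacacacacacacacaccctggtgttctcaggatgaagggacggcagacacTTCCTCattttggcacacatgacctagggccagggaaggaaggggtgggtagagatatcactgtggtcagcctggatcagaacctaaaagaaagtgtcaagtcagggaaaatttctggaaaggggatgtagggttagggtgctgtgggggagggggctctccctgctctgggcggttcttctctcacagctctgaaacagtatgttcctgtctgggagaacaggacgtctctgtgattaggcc
Mrc1 held the letters 3 times, and C1qb and C1qc held them once each, starting 30 and 193 bases before the start. These letters occurred in 10 of the 14 macrophage and microglia genes with a window, in 0 of the 3 mast cell genes, in 18 of the 29 listed genes of the set and in 28.3% of all windows. Counted by gene, they occurred in 31.3% of all genes with a window. The motifs were searched one by one, each on both strands, so overlapping letters could count for more than 1 of them.

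Of the 36 genes, 27 were measured, 24 of them on both arrays. The 9 below the floor in both heads were the neutrophil genes Mpo, Elane and Camp, the macrophage and microglia genes Itgam, Trem2 and Aif1, the lymphoid genes Cd79a and Cd3e, and Itgb2. At least 2-fold apart were 2 of the 27 in the MatDp(dist2) direction, Cpa3 and Mcpt4, where 4.43% of all measured genes passed, and 1 in the PatDp(dist2) direction, Cd163, where 3.47% passed. Over the whole set these shares are near the background. At a lower step of 1.5-fold, 3 of 27 were higher in MatDp(dist2) against 1496 of the 12483 measured genes, and 5 of 27 were higher in PatDp(dist2) against 10.8% of measured genes, 1353 in all. Most differences were small, with 22 of 27 genes on the PatDp(dist2) side and 19 of 27 under 1.5-fold.

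**Figure D1:**
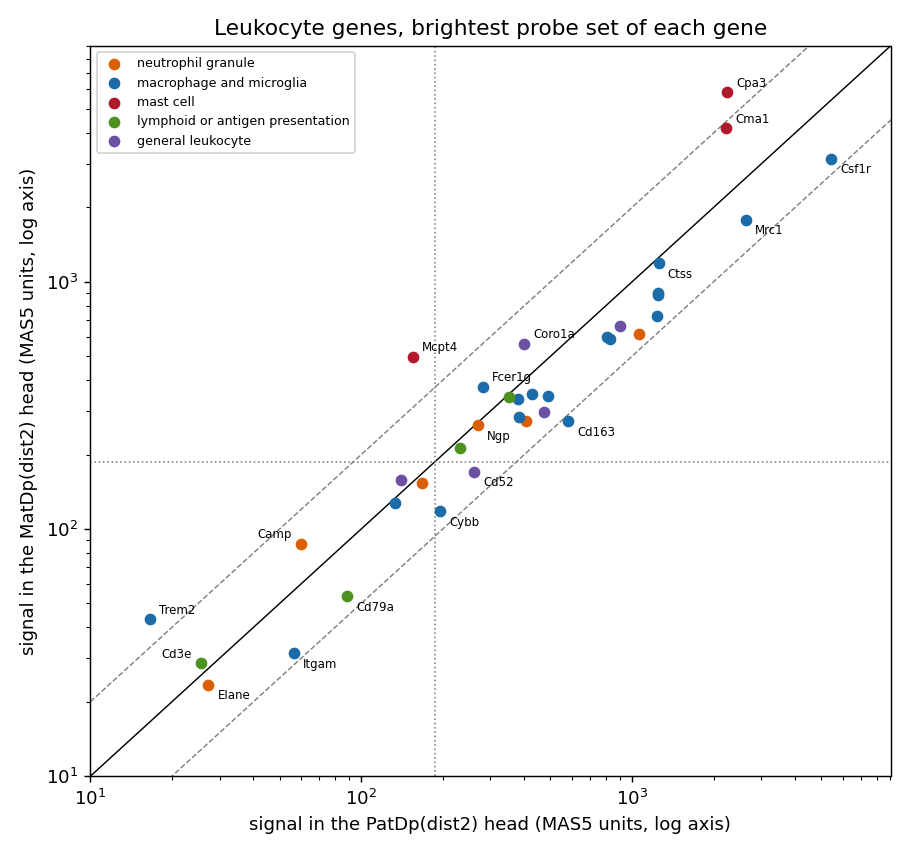
Signal of each of the 36 genes in the head labelled MatDp(dist2) (vertical) and in the one labelled PatDp(dist2) (horizontal), both on log axes in MAS5 units, 1 point per gene from its brightest probe set and 1 array per genotype. The solid line marks equal signals, dashed lines 2-fold, and dotted lines the floor of 187, and the mast cell genes Cpa3 and Mcpt4 lie above the upper dashed line.

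Brightness moved with the ratio on these arrays. The median log2 ratio of all measured genes was 0.12 among those with a mean log2 signal of 8 to 9 and -0.21 among those of 12 to 15. Of the 12 genes of the set with a mean log2 signal of 8 to 9, 9 were higher in PatDp(dist2), with a median of -0.23, while 39.8% of all measured genes of that brightness were higher there. All 5 genes of the set at 9 to 10 were higher in PatDp(dist2), with a median of -0.49, against 44.9% of all measured genes of that brightness. At 11 to 12, Cpa3 and Cma1 were higher in MatDp(dist2), and Mrc1 was higher in PatDp(dist2), the direction of 63.8% of all measured genes of that brightness. PatDp(dist2) was also the common direction at 10 to 11, with 54.7% of all measured genes and all 3 genes of the set, and at 12 to 15, with 75.1% and Csf1r, the 1 gene of the set. Below 8 it was the direction of 587 of 1679 measured genes and of all 3 genes of the set.

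Mast cell granule genes gave the highest ratios of the set. Cpa3, which encodes the mast cell carboxypeptidase, had a signal of 5843 in MatDp(dist2) against 2251 in PatDp(dist2), a 2.60-fold difference. Among 1257 measured genes with a mean log2 signal of 11 to 12, 17 had a ratio at least this high, Cpa3 included. Cma1, a chymase of connective tissue mast cells, had 4186 in MatDp(dist2) against 2229.5 in PatDp(dist2), 1.88-fold. Mcpt4, another chymase of these cells, had 497 in MatDp(dist2) against 155, below the floor, in PatDp(dist2), at least 2.66-fold, with a log2 bound of 1.41 that was 0.097 with the higher 70th percentile floor. It had no value with the mean over probe sets, which took only genes above the floor on both arrays. The summed signal of the 3 genes was 10526.5 in MatDp(dist2) against 4635 in PatDp(dist2). Each was read by a single probe set, so no second probe set of the same gene bears on these values.

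The other measured genes of the mast cell programme went the same way. Of a list of 19 further genes, 16 were on the array and 8 were measured. All 8 had the higher signal in MatDp(dist2), 1 of them at least 2-fold (4.43% of all measured genes). The median log2 ratio was 0.49, and it was 0.25 with the offset of 100. By any amount, 6485 of the 12483 measured genes were higher in MatDp(dist2). Tpsb2, a mast cell tryptase, had 1612 in MatDp(dist2) against 609 in PatDp(dist2), 2.65-fold, and its other probe set lay below the floor in both heads. Hdc, the enzyme that makes histamine, had 1058 in MatDp(dist2) against 575 in PatDp(dist2), 1.84-fold. Its second measured probe set, at 409 in MatDp(dist2) against 131 in PatDp(dist2), was at least 2.19-fold higher in MatDp(dist2). Slc18a2, the vesicle transporter that loads histamine, had 301 in MatDp(dist2) against 124.5 in PatDp(dist2), at least 1.61-fold.

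The remaining measured genes of the list lay closer together. Srgn, the core protein on which granule proteases are stored in many blood cells, was 1.45-fold higher in MatDp(dist2), and Gata2 was 1.37-fold higher on its brighter probe set, while the dimmer had 189.5 in MatDp(dist2) against 203.5 in PatDp(dist2). The tryptase Tpsab1 (1.21-fold), the receptor Kit (1.21-fold), which pigment cells also carry, and Mrgprb1 (at least 1.13-fold) completed the measured genes. The mucosal proteases Mcpt1 and Mcpt2, the basophil protease Mcpt8, and the IgE receptor genes Fcer1a and Ms4a2 lay below the floor in both heads. The chymases and tryptases above the floor are those typical of connective tissue mast cells.

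**Figure D2:**
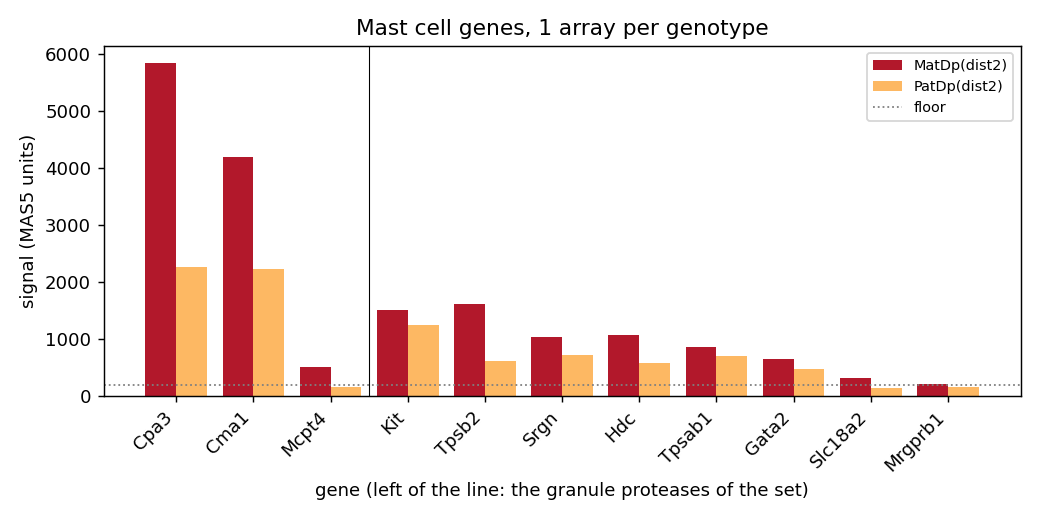
Signals in MAS5 units of the 3 mast cell genes of the set (left of the line) and of the 8 measured genes of the further mast cell list (right), with 1 bar per array, MatDp(dist2) beside PatDp(dist2), and the floor of 187 dotted. All 11 genes have the taller bar for MatDp(dist2), and the bars of Cpa3, Mcpt4, Tpsb2 and Slc18a2 differ by more than 2-fold, though Slc18a2 lies below the floor in PatDp(dist2) and its bound is 1.61-fold.

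Most skin markers moved with the mast cell genes, and so did neuron markers. Of 8 genes of epidermis and gland epithelium, all measured, 6 were higher in MatDp(dist2), against 52.0% of all measured genes. Epcam and Cdh1 were slightly higher in PatDp(dist2). The summed signal of the 8 was 48209.6 in MatDp(dist2) and 9775 in PatDp(dist2), with none at 0. Krt10, a keratin of the upper epidermis, had 12993 in MatDp(dist2) against 756 in PatDp(dist2), and Krt5, a keratin of the basal layer, had 4407 and 2796 in the same order. The median log2 ratio of the 8 was 2.34, and it was 0.76 with the mean over the probe sets of each gene. All 8 neuron markers were higher in MatDp(dist2) too, with a median log2 ratio of 1.14. The part of skin or neuron content in the mast cell result was not tested.

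Macrophage genes were higher in PatDp(dist2) by modest amounts. Of the 18 genes 15 were measured, and 14 of these had the higher signal in PatDp(dist2), against 48.0% of all measured genes, and the median log2 ratio was -0.47, or 1.38-fold. At least 2-fold higher there was 1 of the 15, near the 3.47% of all measured genes. The summed signal of the 18 genes was 12107 in MatDp(dist2) against 17627 in PatDp(dist2). Cd163, the scavenger receptor for haemoglobin bound to haptoglobin, had 273 in MatDp(dist2) against 583 in PatDp(dist2), 2.14-fold higher in PatDp(dist2) and the lowest ratio of the set. Its log2 ratio of -1.09 was -0.33 with the floor at the higher 70th percentile and -0.87 with an offset of 100 added to the signals, so it was under 2-fold in both. Mrc1, the mannose receptor of tissue macrophages, had 1786 in MatDp(dist2) against 2641 in PatDp(dist2), 1.48-fold.

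Csf1r, the receptor for colony stimulating factor 1, was read by 3 probe sets that all lay on the PatDp(dist2) side. The brightest had 3152 in MatDp(dist2) against 5420.2 in PatDp(dist2), 1.72-fold. The next had 1039.7 in MatDp(dist2) against 1588.5 in PatDp(dist2), 1.53-fold, and the dimmest had 654.5 and 872 in the same order, 1.33-fold. The size of the difference thus depended on the probe set, while its direction did not. Of the ligands of this receptor, Csf1 had 902 in MatDp(dist2) against 960.5 in PatDp(dist2), and Il34 lay below the floor in both.

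The 3 chains of complement C1q, the collagen-like protein that tags debris and synapses for uptake, are neighbours on Chr 4 and are made together by macrophages and microglia. C1qa had 587 in MatDp(dist2) against 826 in PatDp(dist2), 1.41-fold higher in PatDp(dist2), and C1qc had 596 and 808 in the same order, 1.36-fold. For C1qb the brightest probe set had 725 in MatDp(dist2) against 1233.5 in PatDp(dist2), 1.70-fold. The other C1qb probe sets were nearer to equal, one with 801 and 947 (1.18-fold) and one with 498 and 563 (1.13-fold), MatDp(dist2) first in each pair.

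Genes for receptors and their adaptors mostly followed. Tyrobp, the signalling adaptor DAP12, had 898 in MatDp(dist2) against 1243 in PatDp(dist2), 1.38-fold. Fcgr3, a low-affinity receptor for IgG, had 345 in MatDp(dist2) against 491 in PatDp(dist2), 1.42-fold, and Cd14, the co-receptor for bacterial lipopolysaccharide, had 285 and 383 in that order, 1.35-fold. Fcer1g was the exception among the measured macrophage genes. It encodes the gamma chain that Fc receptors of macrophages share with the IgE receptor of mast cells, and it had 377 in MatDp(dist2) against 282 in PatDp(dist2), 1.34-fold higher in MatDp(dist2).

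Lysosomal and microglial genes differed less, Lyz2 apart. Lyz2, the lysozyme of macrophages and neutrophils, had 886.5 in MatDp(dist2) against 1252 in PatDp(dist2), 1.41-fold. Cd68, a lysosomal membrane protein, had 352 in MatDp(dist2) against 428 in PatDp(dist2), 1.22-fold, and Ctss, the protease cathepsin S, had 1189 and 1255 in that order, 1.06-fold. Cx3cr1, the fractalkine receptor of microglia and monocytes, had 336 in MatDp(dist2) against 378 in PatDp(dist2), 1.12-fold, on the one of its probe sets above the floor. Cybb, the catalytic subunit of the phagocyte oxidase, reached the floor on 1 of its 3 probe sets and on 1 array, with 118 in MatDp(dist2) against 196.0 in PatDp(dist2).

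**Figure D3:**
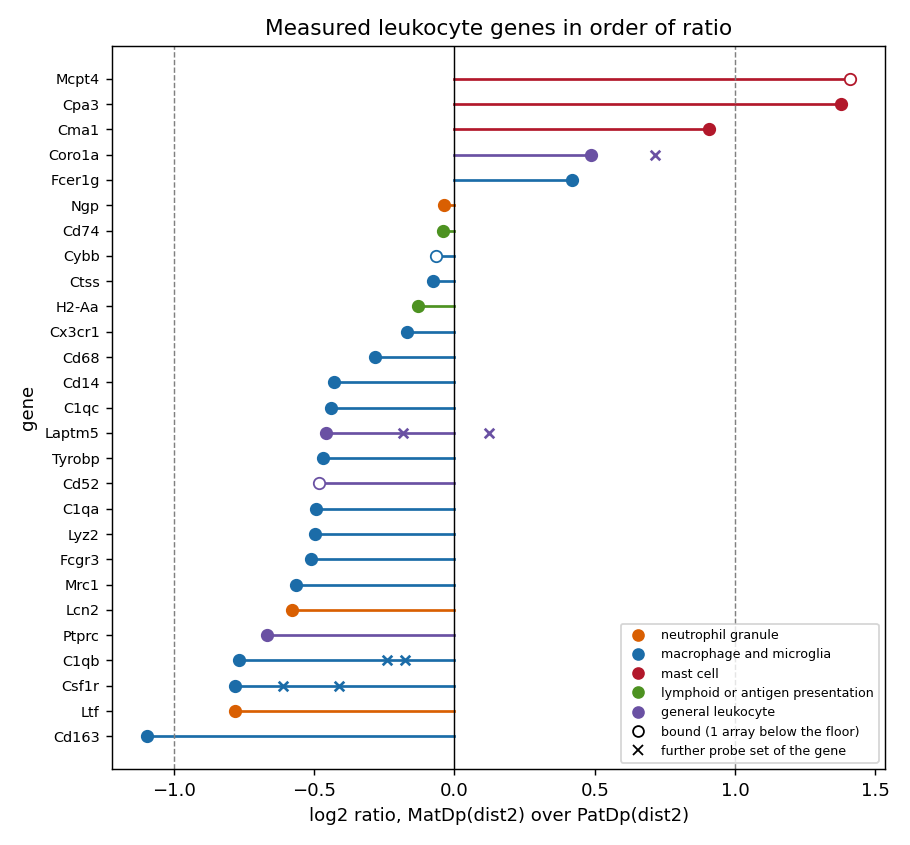
Log2 ratio of MatDp(dist2) over PatDp(dist2) for the 27 measured genes in order of ratio, coloured by group, with dashed lines at 2-fold. Filled circles are the brightest probe set, open circles bounds where 1 array lay below the floor, and crosses further measured probe sets; 3 mast cell genes, Coro1a and Fcer1g lie right of 0 and the other 22 left of it.

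Tissue macrophage genes outside the set went the same way, and microglial genes had no common direction. Of 24 genes of tissue macrophages and monocytes on the array 15 were measured. Of these, 13 were higher in PatDp(dist2), against 48.0% of all measured genes, with a median log2 ratio of -0.40. Cd36, a fatty acid receptor that fat and vessel cells also carry, had 1449.7 in MatDp(dist2) against 4901 in PatDp(dist2), 3.38-fold. Lyve1, a hyaluronan receptor of perivascular macrophages and lymphatic vessels, had 989 in MatDp(dist2) against 1678 in PatDp(dist2), 1.70-fold. F13a1, the clotting factor subunit that such macrophages make, had 2093.5 and 3329.6 in that order, 1.59-fold.

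The microglial list had 12 genes on the array, among them Trem2 of the set. Of these, 6 were measured, 3 higher in each head. Their median log2 ratio of 0.03 turned below 0 with median centring, the lower floor and the offset. Sall1, at 249 in MatDp(dist2) against 153 in PatDp(dist2) (at least 1.33-fold), Olfml3, at 1482 and 1124, and Slc2a5, at 107 and 203, differed the most, in that order of heads. The defining microglial receptors P2ry12, Siglech and Gpr34 lay below the floor in both heads, while Tmem119, which bone-forming cells also express, had 1455 and 1351.5. Of the 6 microglial markers, Cx3cr1 and Tmem119 were above the floor in both heads and Sall1 in MatDp(dist2).

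Osteoclasts, the bone-resorbing relatives of macrophages, showed the same direction. All 8 measured genes of 10 were higher in PatDp(dist2), 0 of them 1.5-fold, with a median log2 ratio of -0.36. Over all measured genes 48.0% were higher there, 10.8% by at least 1.5-fold. Acp5, their acid phosphatase, had 1484 in MatDp(dist2) against 2123 in PatDp(dist2), 1.43-fold. Dcstamp, which is needed for their fusion, was at least 1.33-fold higher in PatDp(dist2), and Atp6v0d2, a proton pump subunit, had 312 and 411, 1.32-fold.

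Signalling genes shared by leukocytes were spread over both directions. Among 9 measured Fc receptor and ITAM signalling genes of 16 on the array, 5 were higher in MatDp(dist2), near the 52.0% of all measured genes. Their median log2 ratio of 0.05 was -0.01 with quantile normalization. Plcg2 had 325 in MatDp(dist2) against 536 in PatDp(dist2), Ptpn6 477 and 384.5, and Syk 235 and 193.5, in that order of heads. Of 4 measured phagocyte oxidase genes 3 were higher in MatDp(dist2), against the same 52.0%. The GTPase Rac2 led them, with 573 in MatDp(dist2) and 385 in PatDp(dist2). The median of 0.14 was -0.04 with quantile normalization. Ncf4 (253 and 228) and Ncf1 (289 and 264) differed less.

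Vessel, fat and muscle markers moved with the macrophage genes. Of 10 endothelial genes, all measured, 9 were higher in PatDp(dist2), against 48.0% of all measured genes. The summed signal of the 10 was 6937 in MatDp(dist2) against 9834 in PatDp(dist2). Kdr, the receptor for vascular endothelial growth factor, had 1105.5 and 1813.5, and Cldn5, a tight junction gene, went the other way with 1186 and 1059.5, MatDp(dist2) first. All 5 fat genes were higher in PatDp(dist2), with sums of 28723 in MatDp(dist2) against 67999 in PatDp(dist2). Fabp4, the fatty acid carrier of fat cells, had 11110.1 and 21051, and Ucp1, the heat-producing protein of brown fat, had 5963 and 13932 in that order. All 8 skeletal muscle genes were higher there as well, with sums of 97384 and 127577, led in brightness by Acta1 (17284 and 17717) and Mylpf (15996 and 18701). The fat and muscle genes all had a mean log2 signal of 12 to 15, where 75.1% of all measured genes were higher in PatDp(dist2). The muscle median log2 ratio, -0.35, was -0.17 with quantile normalization and -0.165 with the loess fit. That of fat, -1.22, was -1.01 and -1.04 in that order. None of the vessel, fat and muscle genes was at 0, and the part of these tissues in the macrophage result was not tested.

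Neutrophil granule genes were sparse. Of the 6 genes 3 were measured, all higher in PatDp(dist2), against 48.0% of all measured genes, with a median log2 ratio of -0.58. Ltf, the iron-binding lactoferrin of secondary granules and of gland secretions, had 617 in MatDp(dist2) against 1062 in PatDp(dist2), 1.72-fold. Lcn2, which binds bacterial iron carriers and is also made by epithelia, had 272.5 in MatDp(dist2) against 407 in PatDp(dist2), 1.495-fold. Ngp, a granule protein of the cathelicidin family made in immature neutrophils, had 263 in MatDp(dist2) against 269.7 in PatDp(dist2), 1.03-fold.

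The other granule genes stayed below the floor. Mpo, the myeloperoxidase, had 153 in MatDp(dist2) against 167 in PatDp(dist2), Elane, the neutrophil elastase, 23.4 and 27.3, and Camp, the cathelicidin, 87.2 and 59.9. So the measured difference rested on Ltf and Lcn2, which gland and surface epithelia also make, and the part of epithelia in it was not tested. The epithelial genes Epcam and Cdh1, of the marker list for such cells, had 997 and 2376 in MatDp(dist2) against 1153 and 2400.1 in PatDp(dist2). The keratins Krt5 (4407 and 2796) and Krt14 (2359 and 1517) of the same marker list went the other way, as did all 4 other genes of the epidermis and gland epithelium list, Krt10, Krt1, Lor and Flg.

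A list of 26 further granulocyte genes had 21 on the array and 9 measured, 7 of them higher in PatDp(dist2), 4 by at least 2-fold, and 1 at least 2-fold higher in MatDp(dist2), with a median log2 ratio of -0.30. Over all measured genes 48.0% were higher in PatDp(dist2), 3.47% by at least 2-fold, and 4.43% were at least 2-fold higher in MatDp(dist2). S100a8, a calcium-binding protein abundant in neutrophils, had 448 in MatDp(dist2) against 1320.2 in PatDp(dist2), 2.95-fold. Pglyrp1, which binds bacterial walls, had 1295 in MatDp(dist2) against 2918 in PatDp(dist2), 2.25-fold. The stefin gene Stfa2l1 had 1367 in MatDp(dist2) against 528.5 in PatDp(dist2), 2.59-fold higher in MatDp(dist2). The other gene higher in MatDp(dist2), Ms4a3, was at least 1.30-fold higher there. The defining markers Mmp8, at 80.7 and 138, and Cxcr2, at 20.9 and 31.6, lay below the floor in both heads. So did Prtn3, Ctsg, Csf3r and Cd177, and the eosinophil genes Prg2, Prg3 and Epx. The part of other cell types in the measured granulocyte values was not tested.

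Blood content by red cell and platelet genes had no common direction. Of 7 red cell genes on the array 3 were measured, and the brightest, Alas2, the first enzyme of haem synthesis in red cells, had 1912 in MatDp(dist2) against 1623 in PatDp(dist2), while Slc4a1, the anion exchanger of the red cell membrane, had 413 and 775.5. The summed signals of the 7 were 3049 in MatDp(dist2) against 2770.3 in PatDp(dist2). The embryonic globin Hbb-y had 453 in MatDp(dist2) against 13.1 in PatDp(dist2), and without it the sums were 2595.3 and 2757 in that order, an alternative added after seeing the data. The median log2 ratio of the 3, 0.24, was -0.10 and -0.25 with the lower and the higher floor, -0.18 with the offset and -0.13 with the mean over probe sets. Of 4 measured platelet genes 2 were higher in each head, Pf4 with 2709.9 and 4114 and Itga2b with 322 and 293, MatDp(dist2) first.

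Lymphoid genes were hardly measured. Cd79a, a signalling chain of the B cell receptor, had 53.4 in MatDp(dist2) against 88.6 in PatDp(dist2), and Cd3e, a chain of the T cell receptor complex, had 28.7 and 25.6, all below the floor. Of 14 further B lineage genes on the array 3 were measured, led by Ebf1, a factor that fat precursors also use, with 892 and 1474, and followed by Cd22 (194 and 154) and Ighm (305 and 308). Of 17 further T and NK genes 2 were measured, Zap70 (343 and 102, at least 1.83-fold higher in MatDp(dist2)) and Cd8a (371 and 258), while the defining Cd3d and Cd3g lay below the floor. These signals do not show whether lymphocytes were present, since most markers lay below the floor in both heads.

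Class II genes were dim and close together. Cd74, the invariant chain that guides class II molecules to peptides, had 341 in MatDp(dist2) against 351 in PatDp(dist2), 1.03-fold higher in PatDp(dist2). H2-Aa, the class II alpha chain, had 212 and 232 on its brightest probe set, 1.09-fold, and lay below the floor on its other 3 probe sets. In the class II list 2 of 9 genes on the array were measured, H2-Eb1 with 212.5 and 209 and Cd83 with 344 and 341, and the transactivator Ciita lay below the floor in both heads.

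Class I and interferon genes were higher in PatDp(dist2). These genes are active in many cell types, so they do not mark leukocytes. Of 6 measured class I genes 5 were higher there, against 48.0% of all measured genes, with a median log2 ratio of -0.58. This median was -0.42 with quantile normalization, -0.47 with the offset and -0.36 with the mean over probe sets. H2-D1, a class I heavy chain, had 591 in MatDp(dist2) against 1045 in PatDp(dist2), 1.77-fold, Tap2, a peptide transporter subunit, was at least 1.60-fold higher in PatDp(dist2), and B2m, the shared light chain, had 4198 and 6595, 1.57-fold.

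All 9 measured interferon response genes of 12 on the array had the higher signal in PatDp(dist2), 2 of them at least 2-fold, and the median was -0.54. For 5 of the 9, MatDp(dist2) lay below the floor, so their ratios are bounds. The median is itself such a bound, that of Ifit1 (60.9 in MatDp(dist2) against 271.5 in PatDp(dist2)). It became -0.996 when the lower floor was used and -0.736 under the higher one. The shares over all measured genes were 48.0% for the direction and 3.47% for 2-fold. Rsad2, the antiviral enzyme viperin, had 587 in MatDp(dist2) against 1729.8 in PatDp(dist2), 2.95-fold. Usp18, which removes ISG15 from proteins, had 158 in MatDp(dist2) against 451 in PatDp(dist2), at least 2.41-fold. Ifitm3, a membrane protein that blocks virus entry, had 3012 and 5017, 1.67-fold. Complement genes followed, with all 4 measured of 7 on the array higher in PatDp(dist2) and a median of -0.77. They were Serping1 (1161.5 and 2102), C1s1 (406 and 715), C3ar1 (233 and 387) and Cfp (456 and 603), MatDp(dist2) first in each pair. Their median was -0.40 with the lower floor, -0.62 with the higher floor, -0.34 with the offset and -0.61 with the mean over probe sets.

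General leukocyte genes were mixed. Ptprc, the phosphatase CD45 of nearly all white blood cells, had 298 in MatDp(dist2) against 474 in PatDp(dist2), 1.59-fold higher in PatDp(dist2). Cd52, a small surface glycoprotein, had 170.2 in MatDp(dist2) against 261 in PatDp(dist2), at least 1.40-fold higher in PatDp(dist2). Coro1a, an actin regulator of leukocytes that neurons also express, went the other way on both measured probe sets, with 562 in MatDp(dist2) against 401 in PatDp(dist2) on the brighter, 1.40-fold, and 548 and 334 on the dimmer, 1.64-fold. Cartilage and bone genes were 3 of 6 in each direction, the brightest being Ibsp (9564 and 10286) and Col2a1 (2660.5 and 1159). All 8 neuron markers were higher in MatDp(dist2), against 52.0% of all measured genes. Their sums were 30513 there and 13523 in PatDp(dist2), led in brightness by Stmn2 (7659 and 4271) and Map2 (4881 and 2145). The part of neurons in the Coro1a values was not tested.

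Laptm5, a lysosomal membrane protein of blood cells, was the 1 gene of 4 with several measured probe sets whose probe sets differed in direction. Its brightest had 660.4 in MatDp(dist2) against 906.0 in PatDp(dist2), 1.37-fold higher in PatDp(dist2). The next had 619.9 and 569.6, 1.09-fold higher in MatDp(dist2), and the dimmest measured one had 206 and 234. Its direction therefore follows the choice of probe set. Itgb2, the beta chain of leukocyte integrins, had 157 in MatDp(dist2) against 141 in PatDp(dist2), and Itgam, its partner on myeloid cells, 31.4 and 56.4, all below the floor.

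Transcription factors and ligands of these cells gave no single direction. Of 8 measured myeloid factors 6 were higher in PatDp(dist2), against 48.0% of all measured genes, with a median log2 ratio of -0.08. Cebpa, which granulocytes, fat and liver cells use, had 1475.5 in MatDp(dist2) against 2718 in PatDp(dist2), 1.84-fold, Irf5 had 353 and 281, and Cebpb 1211 and 1516.5, in that order of heads. Spi1, which encodes PU.1, had 188.6 in MatDp(dist2) against 179.8, below the floor, in PatDp(dist2). Of 8 measured ligands of leukocyte receptors 7 were higher in MatDp(dist2), against 52.0% of all measured genes, with a median of 0.31. Cd200, a neuronal and vascular ligand that restrains myeloid cells, had 2469 and 1458, Cx3cl1, the ligand of Cx3cr1, 426 and 261, and Tgfb1 523 and 342. The adhesion genes had a median of -0.19 over 7 measured, with Cd53 (384 and 496), Icam1 (268 and 337) and Itga4 (681 and 781) the farthest apart.

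**Figure D4:**
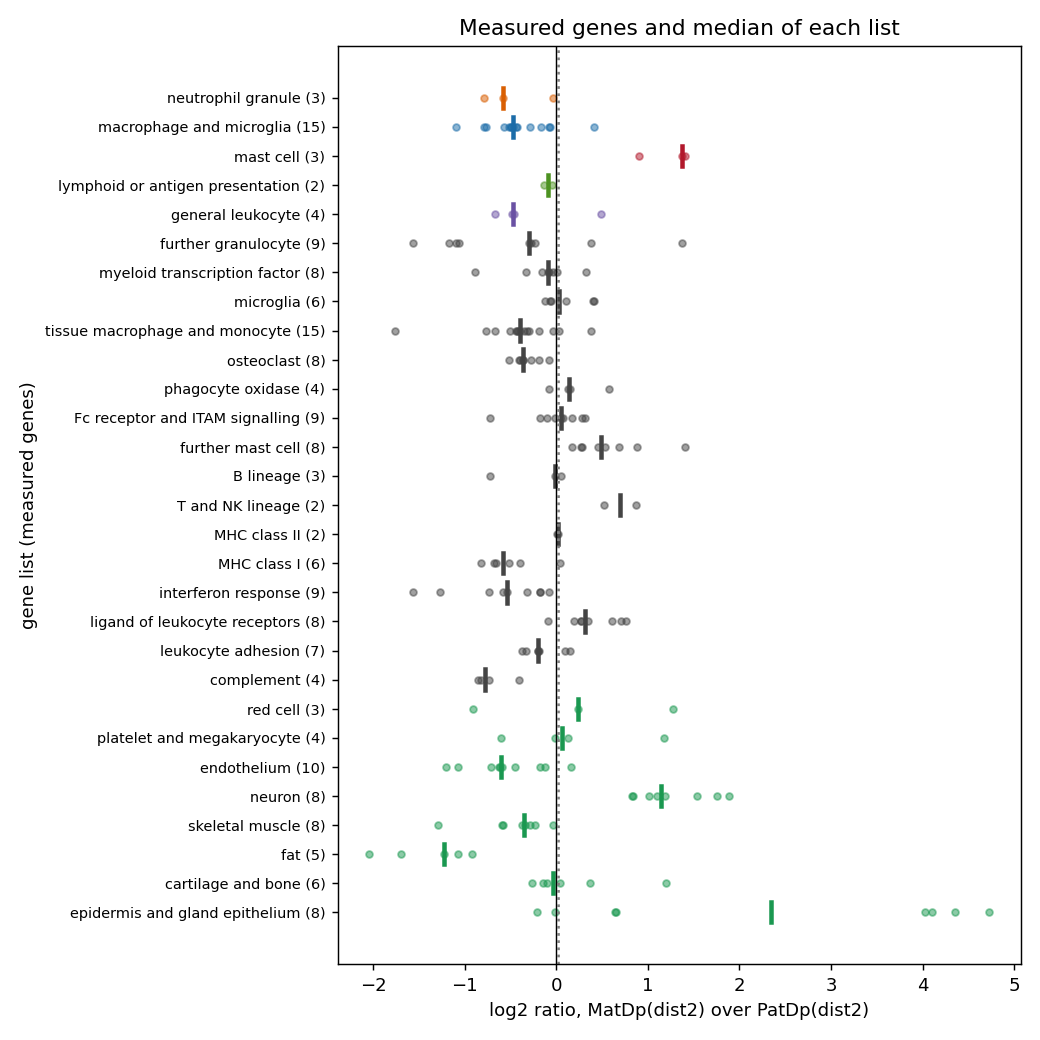
Log2 ratio of MatDp(dist2) over PatDp(dist2) for every measured gene (points) and the median (bars) of the 5 groups of the set, the 16 further leukocyte lists (dark grey) and the 8 context lists (green), with the number of measured genes in brackets and a dotted line at the median of all measured genes, 0.02. The mast cell medians lie right of the line at 1.38 and 0.49, and those of macrophages, osteoclasts, class I, interferon and complement genes left of it.

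By position, 7 of the 36 genes lie on the chromosomes of the translocation. Lcn2 and Mrc1 lie on Chr 2, both proximal of the imprinted gene H13, and Ngp, Ltf, Camp, Cx3cr1 and Cd3e lie on Chr 9. The labels do not place the breakpoint, so whether a Chr 9 gene lies in the duplicated part was not analysed here. Of the 3 measured Chr 9 genes, Ltf had a log2 ratio of -0.78, Cx3cr1 of -0.17 and Ngp of -0.04, within the range of the genes elsewhere, which ran from -1.09 for Cd163 to 1.41 for Mcpt4. Of the 3 mast cell genes none lies on either chromosome. Among the measured genes of the further mast cell list, Hdc lies on Chr 2, also proximal of H13.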

How the data were processed

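RNA of 1 whole newborn head sample per genotype was measured on 1 array each. The deposited values are intensity values on a linear scale (MAS5 signals). The submitters' processing notes name MAS5 and GCOS without versions, and the mean after trimming 2% of probe sets from either end was 500.002 on each array, so the authors' scaling is in the values. Detection calls were not used here. MAS5 signals are noisy when dim, hence the floor (187, the 50th percentile).

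Probe sets took names from the platform's annotation, updated through gene IDs (RefSeq, GRCm38.p6). Of 45101 probe sets, 34945 had 1 symbol, 932 several, 9160 were not listed and 64 were controls. Ratios are MatDp(dist2) over PatDp(dist2), taken on the log2 scale from the deposited signals. Called means at least 2-fold apart, bounds included. The script was tested on simulated arrays (Python 3.11.15, statsmodels 0.14.6 for the loess fit).

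The genes and lists were chosen with earlier results of these data known. Named are all 36 genes, the 3 measured genes of each further list with the largest differences, the 2 brightest of each context list, and the fixed cell markers on the array. Of the fixed markers not described above, S100a9 had 312 in MatDp(dist2) against 666 in PatDp(dist2), and Adgre1 had 747 and 953 in that order. Cd79b, Vpreb1, Igll1 and Hba-a1 lay below the floor in both heads. Some genes stand on several lists, such as Mmp9 among the granulocyte and the osteoclast genes. Further genes of the further and context lists that are named were chosen after their values were seen. Alternatives covered scaling, floor, offset, probe set choice, fold threshold and grouping.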

Additional observations from a re-analysis of the deposited data

How the results depend on the processing

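No paired analysis was possible because each genotype has 1 array, and for the same reason no replicate could be left out. The 2-fold count for MatDp(dist2) was 2, and it was 3 with quantile normalization and the loess fit, which added Cma1, and at 1.5-fold. It was 1 with a 70th percentile floor and with the mean over probe sets, which left Cpa3, and 0 at 3-fold. The count for PatDp(dist2) was 1, and it was 0, without Cd163, with the higher floor, the offset of 100 and at 3-fold, and 5 at 1.5-fold. The median log2 ratio of the set, -0.44, was -0.24 with the offset. That of the neutrophil genes, -0.58, was -0.75 with quantile normalization, -0.72 with the loess fit, -0.13 with the floor at the 30th percentile, -0.78 with the higher floor and -0.062 with the offset. That of the mast cell genes, 1.38, was 0.91, 1.23 and 1.14 with the higher floor, the offset and the mean over probe sets. That of the lymphoid genes, -0.09, was -0.27 with quantile normalization and -0.19 with the loess fit, and no lymphoid gene was measured with the higher floor. That of the general leukocyte genes, -0.47, was -0.028 with the higher floor and -0.17 with the mean over probe sets. The higher floor and the mean leave fewer genes measured, and the offset shrinks dim ratios by construction. The cause of the other moves was not tested. The macrophage median stayed between -0.51 and -0.40 over its alternatives. None of the 27 measured genes changed sign in any alternative that measured it, but most alternatives could hardly turn a sign. The other floors and the offset cannot do so by construction, and a changed probe set choice cannot for genes with a single probe set. Laptm5, whose probe sets differed in direction, was not measured when the _x_at and _s_at probe sets were left out. Signals near the floor limit the neutrophil and lymphoid groups the most.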
